A study of Homo sapiens with 9 samples.

Results

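Collagens, laminins, integrins, cadherins, protocadherins, ADAMTS proteases and matrix metalloproteinases (MMPs) were grouped as the genes of matrix and cell adhesion, and 51 of the 9588 genes in the list analysed here belonged to them. Members were the protein-coding genes whose symbol was COL, a number, A and a number, LAMA, LAMB or LAMC and a digit, ITGA or ITGB and a number, CDH and a number, MMP and a number, or any name that began with PCDH or ADAMTS. By family they were 14 collagens, 1 laminin, 4 integrins, 7 cadherins, 6 protocadherins, 7 ADAMTS genes and 12 MMPs, out of 6037 listed protein-coding genes. Values of the laminin are not given here, and it enters the counts and medians over all 51 genes only.

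The series followed ubiquitylation of histone H2B at lysine 120 (H2BK120Ub), a mark of transcribed gene bodies, by ChIP-seq through the stop and the recovery of transcription after UV-C light. It holds 9 libraries of RPE1, a human cell line that was derived from the pigment epithelium of the retina and immortalised with hTERT. H2BK120Ub was profiled in 2 mock libraries, in 2 libraries made 3 h after UV-C (9 J/m2) and in 4 made 24 h after this dose, and mock chromatin also gave 1 input library. All carried an inducible Cas9 (iCas9) and the same double knockout (dKO), in mock and irradiated cells alike. The list analysed here gives each gene a start site, a length and 1 value from BrU-seq, which sequences RNA labelled by a short pulse of bromouridine and so measures RNA that is being made, and its question for these genes is which of them were active enough, and long enough, to enter the gene sets of the profiles.

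That value is a read density over the opening 3 kb of each gene, taken from unirradiated wild-type (WT) cells of an earlier study. It stands for a condition and not for a library, so it has no replicates and no error, and neither a test nor a UV effect could be had from it. ChIP-seq signal was not analysed here. All 5579 densities above 0 in the list were whole multiples of 0.0433 (within 0.01 of a step), and the sources do not say what 1 step is. Where an interval is printed, it is the exact 95% Poisson interval with 1 step taken as 1 read. It covers counting error only. For a gene listed at 0, the limit given by 3 steps, a one-sided bound, is a density of 0.13. The window was the same 3 kb in every gene and each of the 51 genes was longer than that, so densities compare genes per length. They are averages over a culture, in which a low density in all cells and a high density in few cells cannot be told apart.

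Cells hold to their surroundings by proteins of these families. Collagens and laminins build the fibres and sheets of the extracellular matrix, integrins are the receptors that grip it in pairs of an alpha and a beta chain, and cadherins and protocadherins join cell to cell through calcium-dependent contacts. ADAMTS proteases and MMPs are zinc enzymes that trim or degrade matrix proteins. The retinal pigment epithelium of the eye rests on a collagen- and laminin-rich sheet, Bruch's membrane, while cultured RPE1 cells grow flat on plastic.

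The listed markers of the labelled cell type were mixed. Of the 16 genes fixed as markers of retinal pigment epithelium, 8 were listed, 6 of them above 0 and 1 (OTX2) among the 3000 genes of highest density, with a median of 0.6283. OTX2, a transcription factor of that tissue, had a density of 217.1, and MITF, which drives pigment genes, had 13.3. RPE65, the isomerase of the visual cycle, had 0.26, and TTR and CRX were listed at 0. Of 11 epithelial markers, 2 were listed, the keratins KRT14 and KRT19, and both were at 0. Of 12 mesenchymal markers, 4 were listed (PDGFRB, SNAI2, ZEB1 and TWIST2), all among the 3000 genes of highest density, between 22.9 and 136.1. Over listed protein-coding genes, 70% were above 0 and 45.7% were among the 3000. Markers such as VIM, CDH2, CDH1 and EPCAM are not in the list, so these few genes do not settle a cell type. Of 2 endothelial, 2 neuronal and 4 blood markers listed, 1 each was above 0, the highest of them SNAP25 of neurons at 18.4, which was also among the 3000.

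A smaller share of the adhesion genes than of the listed protein-coding genes was active. Of the 51 genes, 31 had a density above 0 (60.8%), beside 70% of the 6020 listed protein-coding genes with a value, and 20 were listed at 0. Among the 3000 genes of highest density, which the study took as actively transcribed, were 11 of the 51 (21.6%), beside 45.7% of listed protein-coding genes. Without the 12 MMPs, 27 of 39 genes were above 0 (69.2%), close to the 70%, and 11 were among the 3000 (28.2%). Without the MMPs the share above 0 was thus near that of listed protein-coding genes, and the lower share among the 3000 remained. MMPs were not the only low family, since 2 of 7 cadherins were above 0 (28.6%), beside 4 of 12 MMPs (33.3%). These shares are descriptions, since genes are not replicates. The 11 genes were ADAMTS1, COL12A1, ITGA11, PCDH18, ITGA5, ADAMTS6, ADAMTS15, PCDH7, ADAMTS14, ADAMTS7 and COL1A1, in this order from 252.5 to 25.83. Their median of 77.87 stood beside a median of 66.43 over the protein-coding genes in the same set. The gene of rank 3000 had a density of 15.04. Of the 40 members below it, 10 had between 1 and 15, 10 were above 0 but under 1, and 20 were at 0.

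**Figure D1:**
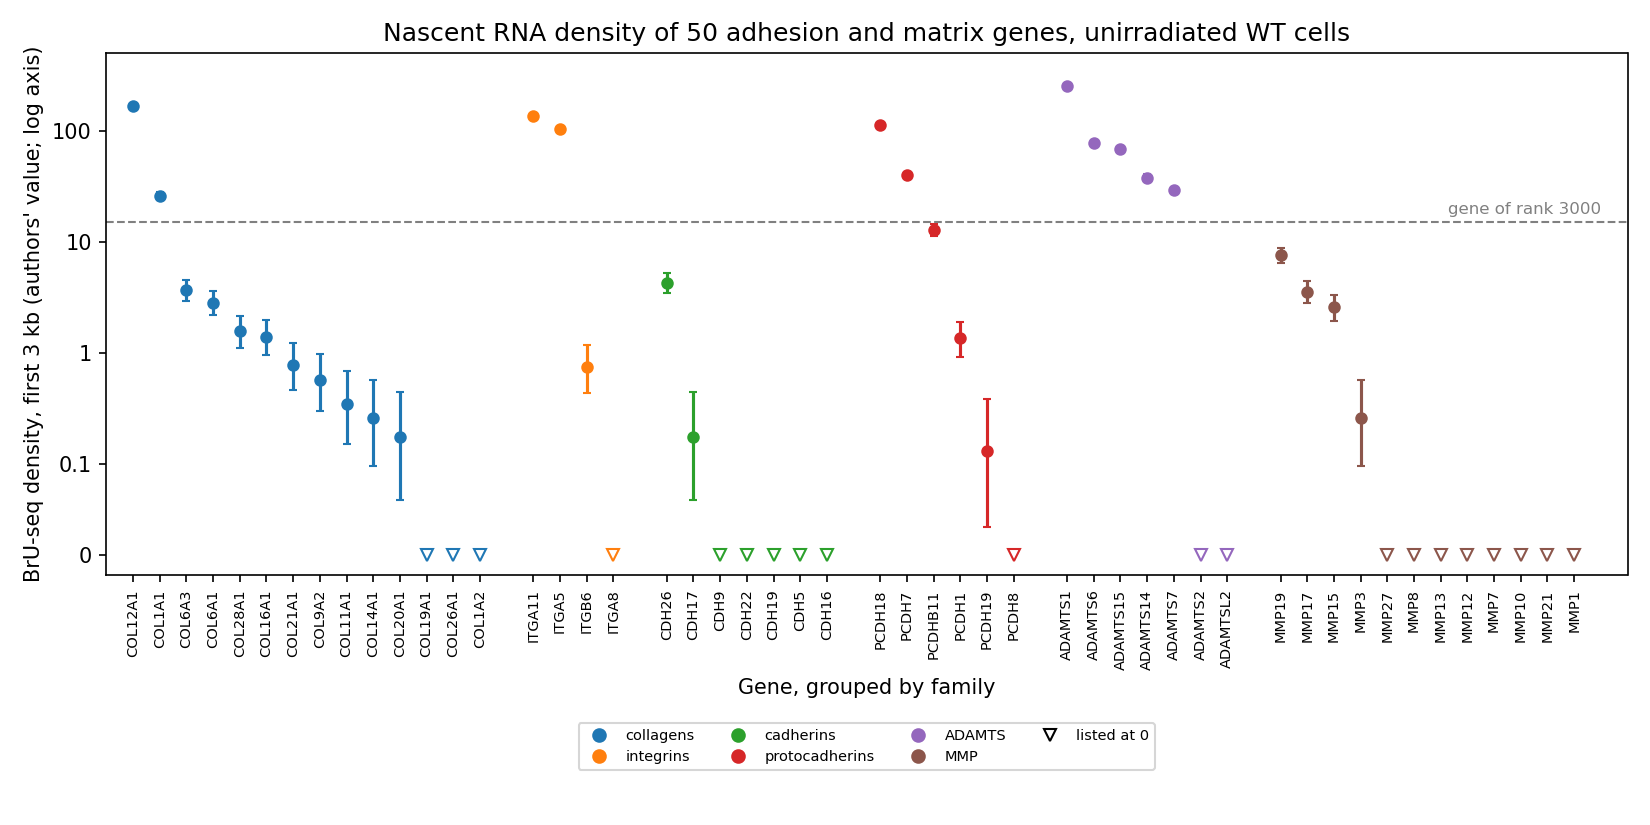
Authors' BrU-seq density in the first 3 kb of each of the 50 genes outside the laminins in unirradiated WT cells (log axis), grouped by family, with 95% Poisson intervals that take 1 step of the density as 1 read. Open triangles mark genes listed at 0 and the dashed line the gene of rank 3000. The 11 genes above the line run from 25.83 to 252.5 and come from the collagens, integrins, protocadherins and ADAMTS genes.

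Within the 11, neighbours in the order were separated by more than their counting intervals, except PCDH7 from ADAMTS14 and ADAMTS7 from COL1A1. Below them most neighbours were not: over all 31 genes above 0, the intervals of 19 of the 30 neighbouring pairs overlapped. The order among the low genes is therefore not resolved by counting.

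**Figure D2:**
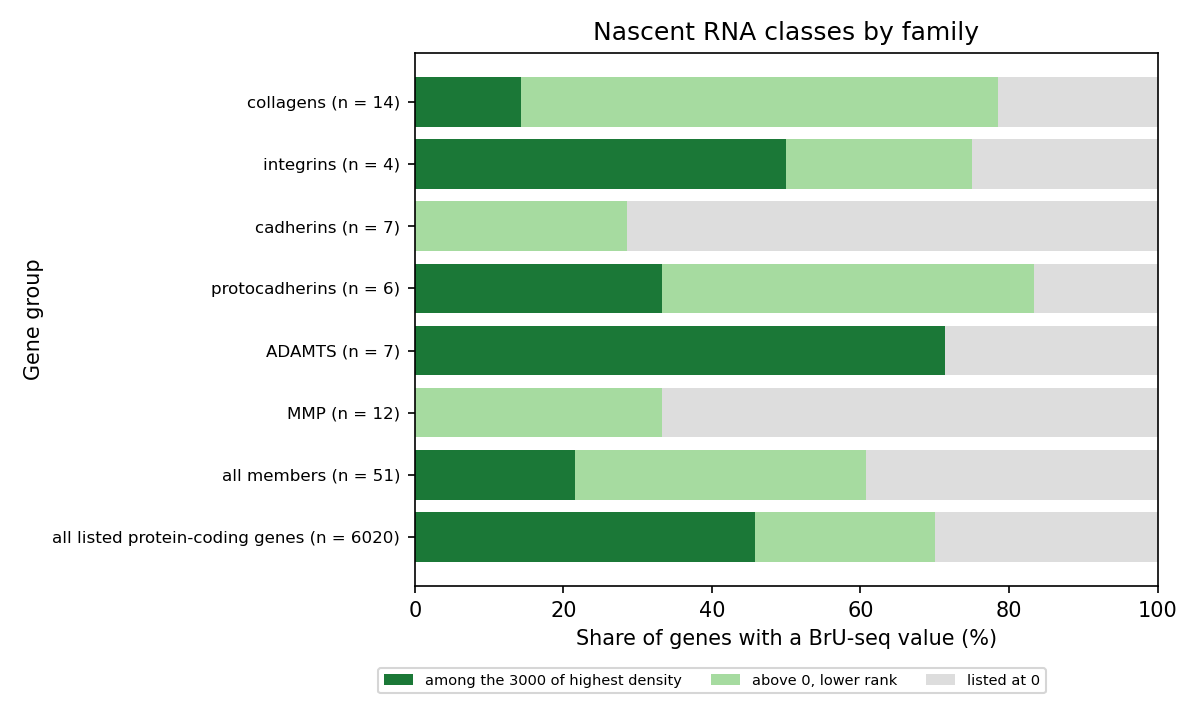
Share of genes (x axis, %) among the 3000 of highest BrU-seq density, above 0 at a lower rank, and listed at 0, for each family but the laminins, for the 51 genes and for all listed protein-coding genes with a value (y axis, number of genes in brackets). ADAMTS genes have 5 of 7 in the highest class, and cadherins and MMPs have 0.

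Promoter sequences are shown for genes that stand at both ends of this range. RefSeq promoters (GRCh38.p14, 250 bases before to 50 after a start) began at the listed start for 31 of the 51 genes, and their CpG content was read as the observed count over that expected from the C and G of the same 300 bases. Promoters of high CpG ratio, or CpG islands, are typical of genes used in many cell types. The median ratio was 0.689 over 8 members among the 3000, 0.481 over 10 members with lower densities and 0.439 over 13 members at 0, beside 0.861 in 2141 listed protein-coding genes of the active set, 0.335 in 1313 at a density of 0, and 0.579 in all 35116 promoters of the table. The members of each class overlapped widely, from 0.438 to 1.01 in the active class and from 0.162 to 1.04 in genes at 0. The last 150 bases before the start are printed for 3 active genes of rich CpG content, for 1 active gene with few CpGs, and for 2 genes at 0, ADAMTS2 with the highest CpG ratio of the 31 promoters (1.04) and MMP8 with the lowest ratio among members at 0 (0.162). They lie at chr6:75206054-75206203 on the minus strand (COL12A1), chr15:68432164-68432313 on the minus strand (ITGA11), chr10:70672356-70672505 on the plus strand (ADAMTS14), chr4:137532495-137532644 on the minus strand (PCDH18), chr5:179345462-179345611 on the minus strand (ADAMTS2) and chr11:102724955-102725104 on the minus strand (MMP8). Each reads 5′ to 3′ on the strand of the gene, and capitals mark each CpG.
COL12A1: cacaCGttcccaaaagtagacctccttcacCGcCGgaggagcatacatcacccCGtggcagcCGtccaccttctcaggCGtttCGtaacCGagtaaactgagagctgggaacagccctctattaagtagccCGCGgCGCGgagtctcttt
ITGA11: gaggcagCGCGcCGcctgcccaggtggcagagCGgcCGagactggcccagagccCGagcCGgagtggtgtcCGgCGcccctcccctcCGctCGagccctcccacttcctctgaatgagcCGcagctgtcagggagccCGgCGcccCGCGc
ADAMTS14: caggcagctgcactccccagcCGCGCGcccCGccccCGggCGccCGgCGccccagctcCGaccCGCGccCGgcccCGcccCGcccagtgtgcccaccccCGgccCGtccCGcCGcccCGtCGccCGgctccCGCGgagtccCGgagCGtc
PCDH18: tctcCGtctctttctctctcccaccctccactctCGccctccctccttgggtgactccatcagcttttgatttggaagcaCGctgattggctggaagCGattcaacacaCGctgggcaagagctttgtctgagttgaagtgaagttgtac
ADAMTS2: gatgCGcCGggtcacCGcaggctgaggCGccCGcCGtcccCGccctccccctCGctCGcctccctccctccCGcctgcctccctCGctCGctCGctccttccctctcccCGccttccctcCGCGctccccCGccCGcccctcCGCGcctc
MMP8: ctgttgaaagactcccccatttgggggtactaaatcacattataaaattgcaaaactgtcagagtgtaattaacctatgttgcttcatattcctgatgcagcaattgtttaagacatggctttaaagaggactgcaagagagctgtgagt
The active genes held 12 (COL12A1), 16 (ITGA11), 25 (ADAMTS14) and 5 (PCDH18) CpGs in these windows. ADAMTS2, listed at 0, held 20, and MMP8, also at 0, held 0. A CpG-rich promoter was thus present on both sides of the range.

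The letters TATAAA, the core of the TATA box that places the start of many tightly regulated genes, were searched in the 50 bases before each start. On the strand of the gene they stood in 4 of the 31 promoters (12.9%), all 4 of genes at 0, beside 2.63% of all promoters of the table. By class, they stood in 4 of 13 promoters of members at 0 (30.8%), beside 10.4% of listed protein-coding genes at 0. Of the 8 promoters of active members 0 had them, beside 1.54% of those of the active set. With either strand read, the 4 stayed 4 and the share in the table was 3.47%. The motif did not overlap a CpG. The 4 windows lie at chr11:102530748-102530797 on the minus strand (MMP7), chr11:102780629-102780678 on the minus strand (MMP10), chr13:52848641-52848690 on the minus strand (PCDH8) and chr9:133534654-133534703 on the plus strand (ADAMTSL2). Capitals mark TATAAA.
MMP7: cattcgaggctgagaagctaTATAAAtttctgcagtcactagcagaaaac
MMP10: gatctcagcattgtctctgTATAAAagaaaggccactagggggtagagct
PCDH8: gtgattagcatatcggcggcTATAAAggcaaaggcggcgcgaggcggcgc
ADAMTSL2: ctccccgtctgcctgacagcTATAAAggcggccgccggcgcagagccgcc
In MMP10 the motif began 31 bases before the start and in the other 3 genes 30 bases before it, the usual place of a TATA box. These are matches of letters in a window and not shown binding sites.

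Collagens were mostly low, with COL12A1 far above the rest. COL12A1, a collagen that decorates the surface of collagen fibrils, had a density of 166.1 (interval 160.9 to 171.5, rank 386). It is a gene of 66 exons over 121728 bp (ENSG00000111799) at chr6:75084326-75206053 on the minus strand. COL1A1, the alpha 1 chain of fibril-forming type I collagen, had 25.83 (23.79 to 27.99, rank 2603) over 17531 bp (ENSG00000108821) at chr17:50184101-50201631 on the minus strand. COL1A2, the alpha 2 chain of the same trimer, was listed at 0 in its first 3 kb, at chr7:94394895-94431227 on the plus strand. The 2 chains of type I collagen therefore fell on opposite sides of the study's cut. An antisense or other gene on the opposite strand (ENSG00000249406 for COL1A1, ENSG00000285090 for COL1A2) lies in the first 3 kb of both.

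The listed chains of type VI collagen, which forms beaded filaments around cells, were both below the active set. COL6A3 had 3.64 (2.903 to 4.507) and COL6A1 had 2.817 (2.174 to 3.59), intervals that overlap. COL28A1 had 1.56 and COL16A1, a fibril-associated collagen, 1.387. Under 1 were COL9A2 and COL11A1, known from cartilage, and COL21A1, COL14A1 and COL20A1, from 0.78 down to 0.1733, the last being 4 steps. COL9A2 had 0.5633 and was the shortest collagen gene at 16798 bp. COL19A1 and COL26A1 were listed at 0, and COL19A1, at 345913 bp, was the longest. In all, 11 of 14 collagens were above 0, their median was 1.387, and 2 were in the active set.

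Integrins split into 2 high and 2 low alpha or beta chains. ITGA11, which binds fibrillar collagen together with integrin beta 1, had a density of 135.4 (130.7 to 140.2, rank 538) over 135632 bp (ENSG00000137809) at chr15:68296532-68432163 on the minus strand. ITGA5, the alpha chain of the fibronectin receptor, had 103.6 (99.5 to 107.8, rank 818) over 24006 bp (ENSG00000161638) at chr12:54395261-54419266 on the minus strand and was the shortest. GPR84-AS1 lies on the opposite strand in the first 3 kb of ITGA5. ITGA11 and ITGA5 lay far above the median of 8.19 over all listed protein-coding genes. ITGB6, the epithelial partner of integrin alpha V, had 0.7367 (0.4291 to 1.179), and another annotated gene, ENSG00000285155, lies on the same strand within its first 3 kb. ITGA8, a receptor for RGD-bearing matrix proteins and the longest integrin gene listed at 205969 bp, was at 0. ITGB1 and ITGAV, the chains with which these 4 pair, are not in the list analysed here.

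Cadherins were low throughout. Of 7 listed genes, 2 were above 0 and 0 were in the active set. CDH26 had 4.247 (3.448 to 5.175), and CDH17, known from liver and intestine, had 0.1733 (4 steps). CDH5, the cadherin of endothelium, CDH16 of kidney, and CDH9, CDH19 and CDH22 were at 0. The genes ran from 10764 bp (CDH16) to 157990 bp (CDH9). CDH1 and CDH2, the E- and N-cadherin genes, are not in the list analysed here, so these values do not cover the main cadherins of epithelial and mesenchymal cells.

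Protocadherins ranged from 0 to 112.5. PCDH18 had a density of 112.5 (108.2 to 116.9, rank 728) over 13577 bp (ENSG00000189184) at chr4:137518918-137532494 on the minus strand. PCDH7 had 39.95 (37.42 to 42.62, rank 2114) and, at 426432 bp, was the longest of all 51 genes, (ENSG00000169851) at chr4:30720369-31146800 on the plus strand. ENSG00000286596 lies on the opposite strand in its first 3 kb. Further in, a listed lncRNA gene, ENSG00000249678, lies inside PCDH7 on the other strand. Its own density was 0 and its start was 73601 bp from that of PCDH7. PCDHB11 of the clustered protocadherins had 12.74 (11.33 to 14.28, rank 3101), just below the cut. With 1 exon and 4153 bp it was the shortest of the 51 genes. It has close paralogs beside it, and the authors kept a single place for reads that align to several, so its value is uncertain. PCDH1 had 1.343, PCDH19 on chromosome X had 0.13 (3 steps, the lowest value above 0 in the 51 genes), and PCDH8, of 5752 bp, was at 0.

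The window fell on unusual gene structures here. The first exon of a protocadherin commonly codes for the whole extracellular part. Within the first 3 kb, all 3000 bases were exonic in PCDH7, PCDHB11 and PCDH19, 2893 in PCDH18 and 2835 in PCDH8, beside a median of 285 over listed protein-coding genes. PCDH1 had 188. Densities of 0 and of 112.5 both occurred among the genes with such an exon.

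ADAMTS genes were the family with most members in the active set, 5 of 7. ADAMTS1, which cleaves the proteoglycans versican and aggrecan, had a density of 252.5 (246 to 259, rank 174), the highest of the 51 genes, over 9655 bp (ENSG00000154734) at chr21:26835755-26845409 on the minus strand. It was also the shortest gene of its family. ADAMTS6 had 77.87 (74.31 to 81.56, rank 1219) over 333183 bp (ENSG00000049192) at chr5:65148738-65481920 on the minus strand, the longest. ADAMTS15, another protease of proteoglycans, had 68.25 (64.92 to 71.71, rank 1399) over 28001 bp (ENSG00000166106) at chr11:130448645-130476645 on the plus strand.

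The lower ADAMTS genes of the active set were ADAMTS14 and ADAMTS7. ADAMTS14, an enzyme that removes the N-terminal propeptide of fibrillar procollagens, had 37.74 (35.28 to 40.34, rank 2178) over 89936 bp (ENSG00000138316) at chr10:70672506-70762441 on the plus strand. ADAMTS7, which cleaves the cartilage protein COMP, had 28.95 (26.79 to 31.23, rank 2481) over 52259 bp (ENSG00000136378) at chr15:78759206-78811464 on the minus strand. MORF4L1 lies on the opposite strand in its first 3 kb. ADAMTS2, which does the same work on procollagen as ADAMTS14, was listed at 0 over 234609 bp, and both of these genes had CpG-rich promoters, printed above. ADAMTSL2, an ADAMTS-like protein without a protease domain, was also at 0. It lies 1561 bp from FAM163B, another listed gene, which was at 0 too.

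MMPs were low as a family. Of 12 genes, 4 were above 0 and 0 were in the active set. MMP19 had 7.54 (6.461 to 8.747, 174 steps) and was the shortest at 7504 bp. The membrane-bound enzymes MMP17, the longest at 23379 bp, and MMP15 had 3.553 (2.826 to 4.411) and 2.557 (1.946 to 3.298). MMP3, the enzyme stromelysin, had 0.26 (6 steps, 0.09542 to 0.5659). The collagenases MMP1, MMP8 and MMP13, the stromelysin MMP10, matrilysin MMP7, the macrophage elastase MMP12, MMP21 and MMP27 were at 0. No member of the family reached 50 kb.

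Of the 8 MMPs at 0, 7 lay close together in the genome. MMP7, MMP27, MMP8, MMP10, MMP1, MMP3, MMP12 and MMP13 lie in a row on the minus strand of chromosome 11, within 435.2 kb at chr11:102520508-102955732. MMP3 was the only 1 of these 8 above 0, and no other listed gene lies between them. The next listed gene on the right, DCUN1D5, which helps to attach NEDD8 to cullins, had 76.31 at a distance of 94953 bp. On the left, the noncoding gene ENSG00000255482 had 0.1733 at 21698 bp. Within 1 Mb on either side, all 4 other listed protein-coding genes were above 0 and 3 were in the active set. The genes of the row were rich in A and T, with GC contents of 36.1 (MMP10) to 39.7% (MMP1) beside a median of 43.9% over listed protein-coding genes. MMP2 and MMP14, which lie elsewhere, are not in the list analysed here.

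The 51 genes were long. Their median length was 40816 bp, beside 23033 bp over listed protein-coding genes, and their canonical transcripts had a median of 15 exons beside 7. By family, the median was 118117 bp for integrins, 105938 bp for collagens, 81394 bp for cadherins, 52259 bp for ADAMTS genes, 19449 bp for protocadherins and 11243.5 bp for MMPs. Collagen genes had a median of 46 exons. At least 50 kb long, the length from which the study drew its long genes, were 24 of 51 (47.1%), beside 26.1% of listed protein-coding genes. At least 100 kb long were 17 of 51 (33.3%), beside 10.9%.

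Few of the long members were active, so few entered the length sets of the profiles. Of the 24 genes of at least 50 kb, 6 (25%) were among the 3000, namely COL12A1, ITGA11, PCDH7, ADAMTS6, ADAMTS14 and ADAMTS7, beside 54.8% of listed protein-coding genes of that length. Of the 27 shorter members, 5 (18.5%) were, beside 42.6%. The first 4 of the 6 also reached 100 kb. They thus make up 6 of the 919 listed genes in the set of at least 50 kb and 4 of the 390 in the set of at least 100 kb. Across the 31 members above 0, density and length had a Spearman's rho of -0.11, a description over genes that share 1 measurement, beside 0.07 over 4214 protein-coding genes above 0. Active members of 9655 bp and of 426432 bp both occurred.

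Length sets how many sites of UV damage a polymerase can meet, since UV-C joins neighbouring pyrimidines, TT above all. On the template strand, the strand that RNA polymerase reads, ADAMTS1 had 836 TT pairs, and ADAMTS6 of the same family had 33661. PCDH7 had 46823, the most of the 51 genes. Per kb the members differed far less, with a median of 86.3 beside 80.6 over listed protein-coding genes. The lowest was COL6A1 with 26.5 per kb and the highest was CDH19 with 118. Among the long active genes, PCDH7 (110) and ADAMTS6 (101) were TT-rich, and ADAMTS14 (50.9) and ADAMTS7 (45.4) were TT-poor. Damage itself was not measured in this list.

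These limits of the list touch these counts. The list was chosen for genes free of near neighbours, and it holds 51 of the 210 protein-coding genes that GENCODE v44 places in the families. Of the other 159, 155 have another annotated gene within 2 kb, beside 22 of the 51 listed. The 60 protocadherins that are not listed all do. The second limit is the window. All 51 listed starts were those of the canonical transcript, but 23 genes have a protein-coding transcript that starts more than 3 kb away. Of these, 20 are among the 40 genes outside the active set and 3 among the 11 in it. The share of such genes over all listed protein-coding genes was not computed, so whether 23 is many is not known. Whether such starts bear on the densities was not tested. A density of 0 holds for the listed start alone. Another 11 noncoding genes named after family members (such as COL4A2-AS1 and CDH8-AS1) were listed too, 4 of them above 0, with 0.26 as the highest. Of all listed genes with a value 58.7% were above 0, and of the protein-coding ones among them 70%. The share over the remaining genes therefore lies below 58.7%, and a share over noncoding genes alone was not computed.

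Other genes of the same pathways were read from lists of 168 genes, of which 48 were listed, 35 above 0 and 18 in the active set (37.5%, beside 45.7% of listed protein-coding genes). Of 23 genes that make and crosslink collagen, 6 were listed, all 6 above 0 and 4 active, with a median of 99.3. SERPINH1, the collagen chaperone of the endoplasmic reticulum, had a density of 214.1. The crosslinking oxidases LOX and LOXL1 had 188 and 165.4. PLOD1, which hydroxylates collagen lysines, had 33.19, and the 2 below the active set were PCOLCE2 with 11.44 and TLL2 with 9.1. COL1A1, at 25.83, lay between these and PLOD1.

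Matrix glycoproteins and proteoglycans ranged from 0 to 253.2, beside 0 to 166.1 in the collagens. Of 52 genes, 16 were listed, 10 above 0 and 3 active. TGFBI, a matrix protein that binds integrins and collagen, had 253.2, EFEMP1, a fibulin-type protein of elastic matrix, had 231.8, and the proteoglycan SPOCK1 had 137.6. Of 7 integrins outside the symbol rule, 3 were listed and 0 active, with 3.553 for ITGAX and 2.08 for ITGA2B. ITGAM of white blood cells was at 0.

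On the inner side of the receptor, 6 of 31 adaptor genes were listed, 4 of them above 0 and in the active set. PARVA, which links integrins to actin, had 188.4, TNS3 had 163.3, and FERMT2, which activates integrins, had 114.3. FERMT1, the kindlin of epithelia, was at 0. Among catenins and desmosome genes, 6 of 20 were listed and 3 active. CTNNB1, the beta-catenin that cadherin tails bind, had 166.8, JUP had 30.51 and DSC3 had 28.73. CTNNB1 was thus in the active set and the 7 listed cadherins were not.

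Cadherin-like genes outside the symbol rule reached higher values than the 4.247 of CDH26. Of 18, 7 were listed, 6 above 0 and 4 active. The giant cadherin FAT1 had 83.07, CELSR1 of planar polarity had 48.88 and CLSTN1 had 43.9. Of 17 protease inhibitors and ADAM proteases, 4 were listed, 3 above 0 and 0 active. ADAM22 had 10.1, TIMP4 had 6.76 and TIMP3, an inhibitor of MMPs that is bound to matrix, had 0.1733.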

How the data were processed

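The series holds 9 ChIP-seq libraries of RPE1 cells, H2BK120Ub and 1 input, which were grouped by their labels. A deposited list of 9588 genes was analysed. It is not split by library, and neither the ChIP-seq signal nor its depth was analysed. The authors trimmed reads with Trim Galore (0.6.5) and took gene coordinates of GRCh38 from the UCSC knownCanonical table. They stated a selection of genes at least 3 kb long and 2 kb apart. The list still holds genes down to 123 bp, and down to 409 bp among protein-coding genes. Shares over listed genes thus include some genes shorter than the window. The authors aligned BrU-seq reads of an earlier study with STAR and counted those at the start of each gene with HOMER (4.8.2, default settings). This read density is used as the authors' score and has no error. The authors name stranded counts for their BrU-seq profiles around the starts but not for this density. Reads from an opposite-strand gene may therefore add to a value.

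Genes were matched by Ensembl identifier to GENCODE v44 on GRCh38, which supplied symbols, types, exons and, with the genome, base composition. On the plus strand the start was taken as the listed second position and on the minus strand as the first, and ends follow from the listed length. The whole span, start and end, was then that of an annotated transcript for 4167 of 4838 and 4086 of 4700 genes. Densities within 1e-06 of 0 were taken as 0, genes were ranked over the whole list, and 3000 formed the active set. Promoters are those of RefSeq. No test was run, because the list has 1 value per gene. The families, gene lists and markers were chosen with earlier results of these data known. Values were given for each active member and for the longest, shortest, highest and lowest positive of each family, and for the 3 highest genes of the other lists. Other genes named were chosen after their values were seen. The gene matching, ranking, intervals and motif search were checked on simulated data, and Python 3.11.15, pandas 2.3.3 and scipy 1.17.1 were used. Protein sequences were not analysed here, and 1 member is not reported here.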

Additional observations from a re-analysis of the deposited data

How the results depend on the processing

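Counts and medians were recomputed under each alternative setting, 243 values in all, of which 209 stayed within 1.5 times the reported value. Keeping genes at 0 in the median moved the density from 3.553 to 0.26 over the 51 genes, to 0.672 in collagens, 52.2 in integrins, 7.04 in protocadherins, 37.7 in ADAMTS genes, and 0 in cadherins and MMPs. Counting only genes among the 3000 lowered the members of at least 50 kb to 6 and of at least 100 kb to 4, both by construction. By family, 1 collagen, 1 integrin and 1 protocadherin were then left at either length and 1 ADAMTS gene at 100 kb, with 0 cadherins. Spearman's rho of density with length turned from -0.11 to 0.081 with log2(density + 1) over all 51 genes, since genes at 0 then enter. Taking all listed genes matched to the annotation as background, in place of protein-coding ones, lowered the share above 0 from 70% to 58.7%. With the 2500 highest genes as the active set, 1 collagen stayed in it, and with 3500, 1 MMP (MMP19) and 1 protocadherin (PCDHB11) entered, for 13 members in all. Requiring a density above 1 left 6 collagens and 1 cadherin. Without genes closer than 2 kb to another listed gene (PCDH7 and ADAMTSL2), 1 protocadherin was active, 1 reached 50 kb and 1 reached 100 kb, and their median was 7.04. On autosomes alone (without PCDH19) this median was 26.3, and 1 protocadherin reached each length. Names that only begin as the rule says add ITGA2B, which lowered the integrin median from 103.6 to 52.8. No paired analysis was possible because the values come from no library and no test. With 1 value per gene, differences between low genes are not resolved at this depth.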
